A study of Homo sapiens with 14 samples.

Results

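From MYC and its dimerization network 8 genes were chosen by name, MYC, MAX, MXD1, MXD3, MXD4, MXI1, MNT and MLX. Their reads were summed over the transcripts that GENCODE release 44 assigns to each gene, and all 8 were found among 60876 annotated genes. The 8 genes together had 107 transcripts in the quantified set, of which 74 received at least a fraction of a read in some library. All 8 passed the filter on low counts that left 15426 genes for testing.

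MYC is a transcription factor that binds DNA only as a dimer with MAX, and the dimer recognizes the E-box CACGTG and recruits coactivators that raise transcription of genes for ribosome production, nucleotide synthesis and growth. MAX also pairs with the MXD proteins (MXD1, MXD3, MXD4 and MXI1) and with MNT, which recruit SIN3 and histone deacetylases to the same E-boxes and oppose MYC. MLX forms a parallel branch with MLXIP and MLXIPL, which respond to glucose, and it can also pair with MXD1, MXD4 and MNT. In breast cancer cells MYC is a well known driver of Pol I and Pol III output, and its mRNA and protein are both short-lived.

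RNA came from MDA-MB-231 cells, an established triple-negative human breast cancer cell line, in 7 groups of 2 replicates. The labels name no compound for the control cells. The study's methods describe them as untreated and its results as given DMSO. The other groups received 5 µM CX-5461, an inhibitor of RNA polymerase I initiation, or 5 µM RBI2, a small molecule found in screens for inhibitors of ribosome biogenesis, with labels of 10, 30 and 120 min for each compound. The names of the deposited tables carry the marks 02, 10 and 30 where the labels say 10, 30 and 120 min. Groups follow the labels here, and each statement about time holds for the label only. No allele or construct was introduced, and nothing in the labels says whether the replicates were separate cultures, so the p-values measure the spread between these libraries.

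The libraries held between 14112299 and 24849354 assigned reads, and the poly(A) protocol was stranded. Control replicate 2 stood apart. Its mitochondrial transcripts made up 20.4% of reads against 8.05% to 11.2% in the other 13 libraries, and 1412 of 15426 genes differed by more than 2-fold between the control replicates against 461 to 629 genes in the other pairs of replicates. Every comparison with the control rests on this library, and those comparisons share the same 2 control libraries, so they are not independent of each other. The line's mesenchymal markers were present in every library (VIM at 2084 to 2694 TPM, with CD44, AXL, CAV1 and MSN at 181 TPM or more). The luminal markers ESR1, CDH1 and FOXA1 did not exceed 6 reads, PGR had 0 reads, and GATA3 had 60 to 118. Of 4 markers of leukocytes, endothelium and fibroblasts, PTPRC, PECAM1 and COL3A1 did not exceed 7 reads, while COL1A1 had 53 to 85 reads. The summed level of these 4 markers was 0.903 to 1.23 TPM in the control. It was 1.1 to 1.2, 0.821 to 1.16 and 0.771 to 1.21 TPM with CX-5461 at 10, 30 and 120 min. With RBI2 it was 1.5 to 1.65, 1.01 to 1.53 and 1.43 to 2.32 TPM at the same labels.

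Promoter sequences of RefSeq (GRCh38.p14) were searched for the E-box CACGTG, which is its own reverse complement, so that both strands are covered by a single search. Windows of 300 bases, 250 before and 50 after a start site, were found for 7 of the 8 genes. Of all 35116 such windows, 2548 (7.26%) held the motif. Among the members it stood in the single window of MXD4, of MNT and of MLX, and in none of the windows of MAX, MXD1, MXD3 and MXI1. The stretches upstream of these 3 genes, the members with the motif, are shown, and they end where GENCODE annotates the first exon base. MXD4 and MNT are the 2 repressor genes called higher with both compounds, MXD4 with RBI2 under only 8 of 24 alternative settings. MXD1, without the motif, was called higher with CX-5461, and MLX was not called in any comparison. A link between the motif and these calls was not tested. The E-box is in capitals and everything else in lower case. It began 238 bases upstream of the RefSeq start in MXD4, 193 in MNT and 50 in MLX. A match describes these letters in these windows and does not show binding.
MXD4, chr4:2262110-2262359, minus strand: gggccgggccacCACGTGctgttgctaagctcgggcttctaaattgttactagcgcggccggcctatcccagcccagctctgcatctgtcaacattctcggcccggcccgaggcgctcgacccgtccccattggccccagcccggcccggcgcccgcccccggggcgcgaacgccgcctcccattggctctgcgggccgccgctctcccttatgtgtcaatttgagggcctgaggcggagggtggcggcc
MNT, chr17:2401105-2401310, minus strand: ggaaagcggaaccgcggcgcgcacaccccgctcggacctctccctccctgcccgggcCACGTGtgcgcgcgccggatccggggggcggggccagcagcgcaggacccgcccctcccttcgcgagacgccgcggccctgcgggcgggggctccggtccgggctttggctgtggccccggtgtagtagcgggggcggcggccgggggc
MLX, chr17:42566850-42567071, plus strand: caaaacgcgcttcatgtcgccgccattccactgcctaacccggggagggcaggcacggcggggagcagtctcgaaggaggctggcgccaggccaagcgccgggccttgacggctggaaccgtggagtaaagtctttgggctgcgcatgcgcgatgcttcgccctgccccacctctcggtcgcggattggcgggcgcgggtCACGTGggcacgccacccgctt

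MYC (chr8:127735434-127742951, plus strand) was the most variable member, with a 5.52-fold range between group means. Levels are given as CPM, counts scaled to library size after TMM, which compare a gene between libraries. MYC stood at 178 and 193 CPM in the control replicates. The CX-5461 libraries held 34.9 and 32.2 CPM (10 min), 157 and 159 (30 min) and 121 and 127 (120 min). The RBI2 libraries held 165 and 165 CPM (10 min), 154 and 155 (30 min) and 131 and 143 (120 min). No treated library reached either control library, and the 2 lowest libraries were the CX-5461 10 min pair. The order of the group means was control, RBI2 10 min, CX-5461 30 min, RBI2 30 min, RBI2 120 min, CX-5461 120 min and CX-5461 10 min, and no neighbours in this order overlapped. In bulk RNA a lower level per cell and fewer cells that express a gene cannot be told apart, here as in every comparison that follows.

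MYC mRNA fell in 3 of the 6 comparisons with the control. The log2 fold change was -2.46 (SE 0.08, n = 2 against 2, adjusted p = 4.15e-08, edgeR quasi-likelihood test with Benjamini-Hochberg adjustment over all genes) with CX-5461 at 10 min. It was -0.58 (SE 0.07, adjusted p = 0.0139) with CX-5461 at 120 min and -0.44 (SE 0.07, adjusted p = 0.00811) with RBI2 at 120 min. At the remaining labels the differences were -0.23 (95% interval -0.39 to -0.07, adjusted p = 0.213) for CX-5461 at 30 min, -0.17 (-0.33 to -0.01, adjusted p = 0.375) for RBI2 at 10 min and -0.26 (-0.43 to -0.10, adjusted p = 0.110) for RBI2 at 30 min, none of which passed the test. Without control replicate 1 MYC was called lower in all 6 comparisons (-2.52 to -0.22), with 21.5% to 43.1% of all genes called, and without control replicate 2 in the 3 above (-2.41, -0.55 and -0.39). The decrease with CX-5461 at 10 min was called under all 24 alternative settings, with values from -2.56 to -2.38. The decreases with CX-5461 and RBI2 at 120 min were called under 18 and 22 of the 24 (-0.77 to -0.54 and -0.61 to -0.35). Both lost their calls with only the libraries compared, and that with CX-5461 also with an offset for transcript length. That with CX-5461 at 120 min lost its call when either of its own replicates was left out (adjusted p = 0.185 and 0.172), or without replicate 2 of RBI2 at 10 min (adjusted p = 0.0608) or at 30 min (adjusted p = 0.065). That with RBI2 at 120 min lost it without its replicate 1 (adjusted p = 0.0838).

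**Figure D1:**
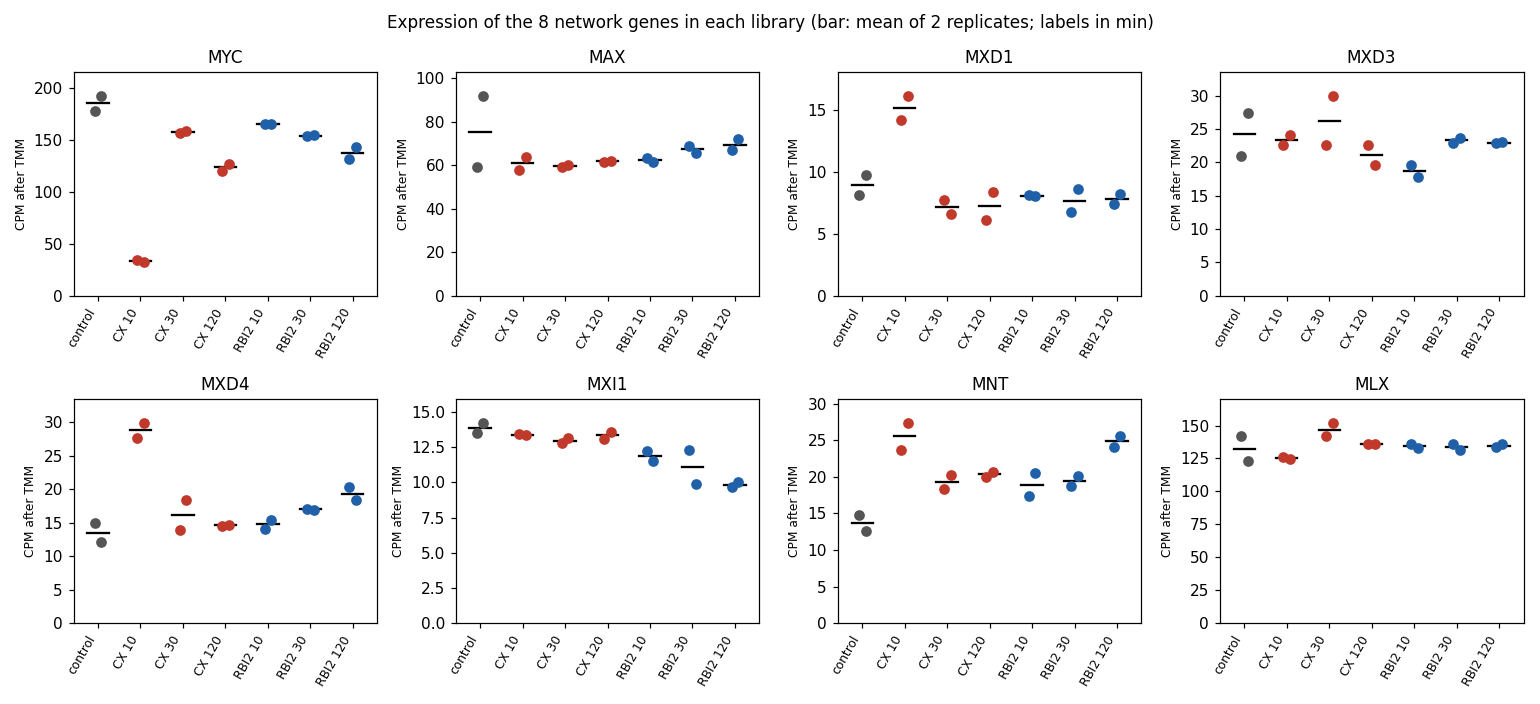
Level of each of the 8 genes in every library, in CPM after TMM scaling on a linear axis from 0, with the 7 groups along the horizontal axis (labels in min), points for libraries and bars for the mean of 2. MYC is at 32.2 and 34.9 CPM in the CX-5461 10 min libraries and above 120 CPM in every other, while MXD1 and MXD4 are highest in those same libraries and MNT is above the control in every treated library.

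The 2 compounds differed at the 10 min label. MYC was 4.92-fold higher with RBI2 than with CX-5461 (log2 difference 2.30, SE 0.08, adjusted p = 1.22e-07). At 30 min the difference between RBI2 and CX-5461 was -0.03 (95% interval -0.19 to 0.13, adjusted p = 0.990), and at 120 min it was 0.15 (-0.01 to 0.31, adjusted p = 0.195). Within CX-5461, the 10 min group was lower than the mean of the 2 later groups by 2.06 on the log2 scale (log2 difference -2.06, SE 0.07, adjusted p = 1.05e-07), while 120 min against 30 min gave -0.35 (-0.51 to -0.19, adjusted p = 0.196). Within RBI2, 120 min against the mean of 10 and 30 min gave -0.22 (-0.36 to -0.08, adjusted p = 0.0870). DESeq2 called MYC lower in both of these last comparisons, whereas edgeR did not.

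At the level of transcripts, MYC-210, MYC-202 and MYC-205 took 48.3%, 26.7% and 23.9% of the gene's estimated reads over all libraries. MYC-210 and MYC-202 both fell with CX-5461 at 10 min, by 2.83 (SE 0.28, adjusted p = 0.00713) and 2.51 (SE 0.23, adjusted p = 0.00595) on the log2 scale, in a test over 54804 transcripts of which 0.35% were called. MYC-205 made up 16.5% of the gene's reads in the control, with 595 and 294 estimated reads in the replicates and the lowest share of any library, 12.2%, in replicate 2. It made up 32.2%, 27.1% and 31.1% in the CX-5461 groups at 10, 30 and 120 min and 21.7% to 23.1% in the RBI2 groups. Its change in level was called only against the 2 later CX-5461 groups (log2 difference -1.87, SE 0.26, adjusted p = 0.0325). Of the 40 transcripts tested across the 8 genes, those of MYC were the only ones called in any comparison. The kit kept the strand of the RNA, but whether the authors' quantification used it is not given in the sources used here, and MYC overlaps CASC11 on the opposite strand.

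MAX (chr14:65006174-65102695, minus strand), the partner that MYC needs to bind DNA and that the MXD proteins and MNT also use, was not called in any comparison. The control replicates were at 59.0 and 91.8 CPM, and the 12 treated libraries lay between 57.8 and 71.8. Control replicate 1 was therefore inside the treated range and control replicate 2 above all of it. The log2 differences from the control ran from -0.34 to -0.12 and none was called, with adjusted p from 0.223 to 0.625. Their sign rested on control replicate 2. Without it the differences were 0.03 to 0.23 and not called, and without control replicate 1 MAX was called lower in all 6 comparisons (-0.63 to -0.41).

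The excess in control replicate 2 lay in particular transcripts. MAX-205 and MAX-204, full-length coding forms, held 92.4% to 95% of MAX reads in the other 13 libraries and 58.7% in control replicate 2. In that library the 765-base coding transcript MAX-210 received 348 estimated reads, or 30.3% of the gene, against 0 reads in every other library. Its reads do not enter the means compared between the compounds, but all 14 libraries share the estimate of spread behind the intervals that follow. MAX differed between RBI2 and CX-5461 by 0.04 at 10 min (95% interval -0.31 to 0.38), by 0.18 at 30 min (-0.17 to 0.53) and by 0.17 at 120 min (-0.18 to 0.51).

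**Figure D2:**
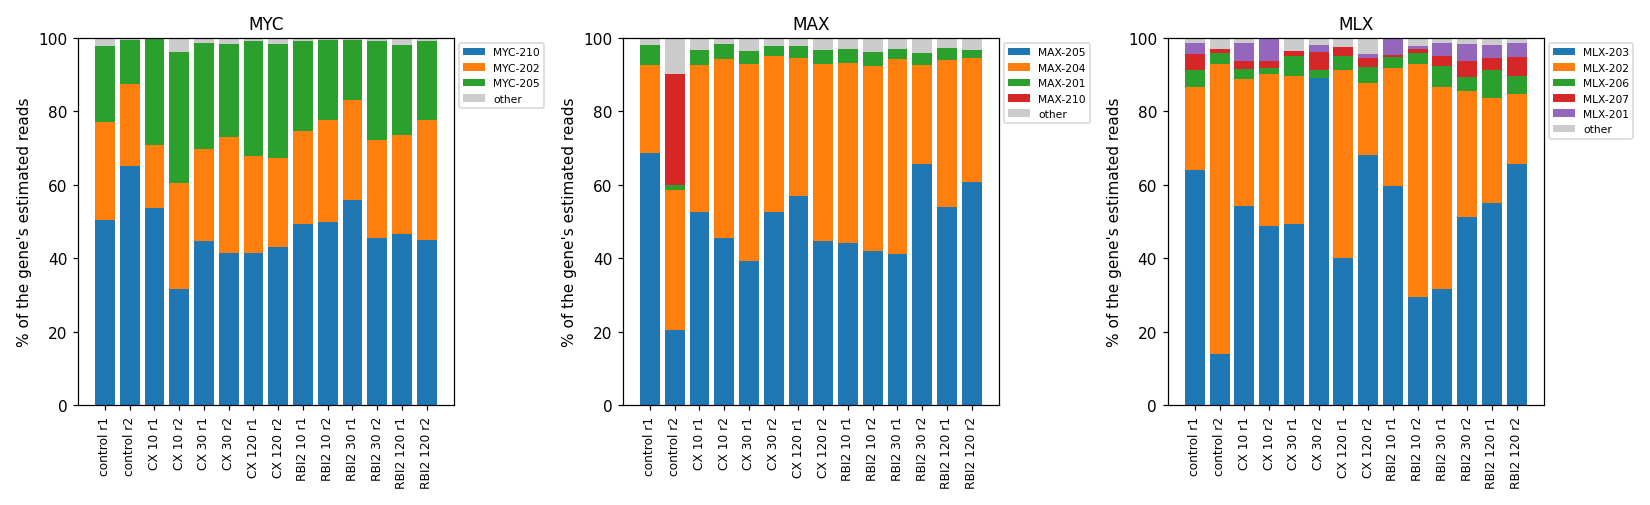
Share of each gene's estimated reads, in percent, taken by its transcripts in each of the 14 libraries (r1 and r2 are the replicates), for MYC, MAX and MLX, with transcripts under 2% of the gene's reads drawn as other. MAX-210 appears in control replicate 2 alone, at 30.3%, and the split between MLX-203 and MLX-202 moves between replicates of the same group.

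With CX-5461 at 10 min 4 of the 8 genes passed the test (MYC lower and the repressor genes MXD1, MXD4 and MNT higher) against 4.77% of all genes (1.8% higher and 2.98% lower). MXD1 (chr2:69897688-69942945, plus strand), induced during differentiation of many cell types, was at 8.14 and 9.75 CPM in the control and at 14.2 and 16.1 CPM with CX-5461 at 10 min. The other 10 libraries lay between 6.15 and 8.58 CPM, so the CX-5461 10 min pair stood above all of the rest. MXD1 rose 1.7-fold over the control (log2 fold change 0.76, SE 0.18, adjusted p = 0.0335). It was 2.10-fold above the 2 later CX-5461 groups (1.07, SE 0.15, adjusted p = 0.00221) and 1.87-fold above RBI2 at 10 min, for which the log2 difference of RBI2 from CX-5461 was -0.91 (SE 0.17, adjusted p = 0.0189). The rise over the control lost its call without either CX-5461 10 min replicate (adjusted p = 0.0803 and 0.168), without replicate 2 of RBI2 at 10 min (0.0613) or at 120 min (0.0576) and with protein-coding transcripts only (0.0838), and it grew to 1.69 with an offset for transcript length. The difference from RBI2 lost it without either replicate of CX-5461 at 10 min (adjusted p = 0.0576 and 0.127) or of RBI2 at 10 min (0.0937 and 0.167), whereas that from the later CX-5461 groups was called under all 24 settings. A single transcript, MXD1-201, carried 98.4% of the reads, and the gene shares exon sequence with SNRNP27 on the same strand.

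MXD4 (chr4:2247432-2262109, minus strand), a repressor typical of resting and differentiated cells, followed the same course with a further rise under RBI2. It was at 15 and 12.1 CPM in the control and at 27.7 and 29.9 with CX-5461 at 10 min. The later CX-5461 libraries were at 13.8 and 18.4 (30 min) and at 14.5 and 14.7 (120 min). The RBI2 libraries held 14.1 and 15.4 CPM (10 min), 17.0 and 17.0 (30 min) and 20.3 and 18.3 (120 min). The CX-5461 10 min pair lay above every other library, and the RBI2 120 min pair lay above the control, overlapping only CX-5461 at 30 min.

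MXD4 rose 2.12-fold with CX-5461 at 10 min (log2 fold change 1.08, SE 0.14, adjusted p = 0.00187) and 1.43-fold with RBI2 at 120 min (0.51, SE 0.15, adjusted p = 0.0376). It was 1.87-fold above the later CX-5461 groups (0.91, SE 0.12, adjusted p = 0.00165), and RBI2 at 10 min was below CX-5461 at 10 min by 0.97 (log2 difference -0.97, SE 0.14, adjusted p = 0.00388). With an offset for transcript length the rise with CX-5461 was 0.72 and not called (adjusted p = 0.134). The difference from RBI2 at 10 min lost its call without replicate 2 of CX-5461 (adjusted p = 0.0611) or replicate 1 of RBI2 (0.0703), and with protein-coding transcripts only (0.153). The rise with RBI2 at 120 min was called under 8 of 24 settings. It was 0.13 with a correction for GC content and length (adjusted p = 0.477) and 0.36 without control replicate 2 (adjusted p = 0.174), and leaving out any 1 of the 10 libraries of RBI2 and of CX-5461 at 10 and 120 min gave an adjusted p between 0.0562 and 0.219. The retained-intron transcript MXD4-203 made up 16.8% of MXD4 reads with CX-5461 at 10 min and 5.1% in the control. Its change in level was not called, and the difference in share was not tested.

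MNT (chr17:2384073-2401104, minus strand) is expressed in dividing as well as resting cells and is found in most tissues. It was at 14.7 and 12.5 CPM in the control. The CX-5461 libraries held 23.7 and 27.4 CPM (10 min), 18.4 and 20.3 (30 min) and 20 and 20.6 (120 min). The RBI2 libraries held 17.4 and 20.5 CPM (10 min), 18.8 and 20.1 (30 min) and 24.1 and 25.6 (120 min). All 12 treated libraries exceeded both control libraries, and the highest groups were CX-5461 at 10 min and RBI2 at 120 min, which overlapped each other.

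MNT rose 1.87-fold with CX-5461 at 10 min (log2 fold change 0.90, SE 0.12, adjusted p = 0.00242) and 1.82-fold with RBI2 at 120 min (0.86, SE 0.12, adjusted p = 0.00593). In the other 4 groups the difference from the control was 0.47 to 0.57 with intervals above 0, but the adjusted p ran from 0.106 to 0.265 and none was called. Leaving out control replicate 1 made MNT called in all 6 comparisons (0.59 to 1.02), and leaving out control replicate 2 left the 2 calls above. With an offset for transcript length the values were 0.30 (adjusted p = 0.401) and 0.52 (adjusted p = 0.146). For RBI2 at 120 min the correction for GC content and length gave 0.50, still called, and leaving out replicate 1 gave an adjusted p of 0.0510. No direct comparison of MNT between compounds passed the test. RBI2 against CX-5461 gave -0.43 at 10 min (95% interval -0.70 to -0.17, adjusted p = 0.0951), 0.01 at 30 min (-0.26 to 0.27) and 0.29 at 120 min (0.03 to 0.55, adjusted p = 0.124).

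MXI1 (chr10:110207605-110287365, plus strand), also known as MXD2, showed the opposite direction under RBI2. It was at 13.5 and 14.2 CPM in the control and between 12.8 and 13.6 in the 6 CX-5461 libraries. The RBI2 libraries held 12.3 and 11.5 CPM (10 min), 12.3 and 9.90 (30 min) and 9.68 and 10.0 (120 min). In CPM every RBI2 library lay below every CX-5461 library. In TPM this did not hold, since replicate 1 of RBI2 at 30 min (8.89) was above replicate 2 of CX-5461 at 30 min (8.86). At 120 min MXI1 fell with RBI2 against the control (log2 fold change -0.50, SE 0.11, adjusted p = 0.0203) and against CX-5461 (-0.44, SE 0.11, adjusted p = 0.0267). At 10 and 30 min the differences between the compounds were not called.

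The MXI1 calls were fragile. That against the control held under 15 of 24 settings and was lost without control replicate 2 (adjusted p = 0.0565) or either RBI2 120 min replicate (0.140 and 0.0887). That against CX-5461 held under 10 of 24 and was lost by leaving out any of 8 libraries, with adjusted p from 0.0508 to 0.199. A correction for GC content and length gave -0.22 and -0.24, neither called. Reads of MXI1 were spread over many transcripts in shares that differed between replicates, and MXI1-231 alone ranged from 0% to 64.9% of the gene.

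MXD3 (chr5:177301461-177312757, minus strand), a repressor expressed in S phase, was not called in any of the 13 comparisons, where 1 was made for each treated group against the control and 7 among the treated groups. It ranged from 17.8 CPM, in RBI2 at 10 min, to 30.0 CPM, in CX-5461 at 30 min. Its replicates at CX-5461 30 min were 22.6 and 30.0 CPM and those of the control were 20.9 and 27.4, so that 5 of the 6 treated groups overlapped the control. The lowest difference from the control was -0.36 (95% interval -0.71 to -0.02, adjusted p = 0.372), with RBI2 at 10 min. Over 24 settings this difference ran from -0.59 to -0.14, and it was called under 1, with a library left out. The gene shares exon sequence with RAB24 on the same strand.

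**Figure D3:**
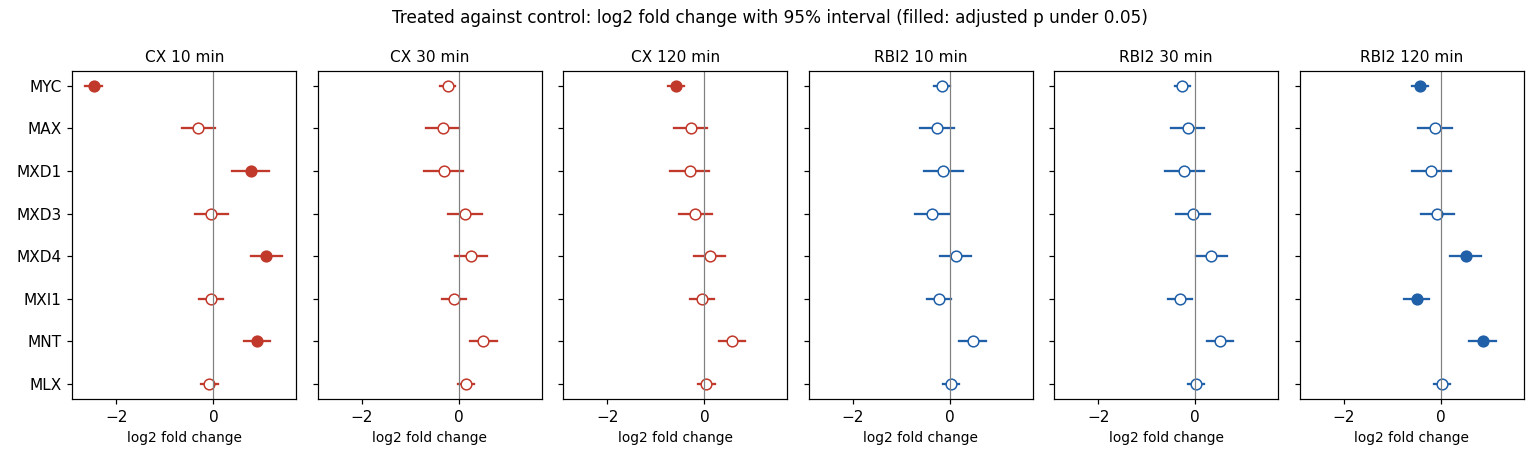
Log2 fold change of each gene against the control (horizontal axis) with its 95% interval, in 6 panels for the treated groups, with filled points for adjusted p under 0.05 in the edgeR test. Filled points are MYC, MXD1, MXD4 and MNT with CX-5461 at 10 min, MYC with CX-5461 at 120 min, and MYC, MXD4, MXI1 and MNT with RBI2 at 120 min.

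MLX (chr17:42567072-42573239, plus strand), the partner of MLXIP, was the steadiest member in CPM. All libraries lay between 123 and 152 CPM, the group means spanned 1.17-fold, and no comparison was called. The interval of the log2 difference from the control was -0.25 to 0.09 with CX-5461 at 10 min and -0.15 to 0.19 with RBI2 at 120 min. With CX-5461 at 30 min the difference was 0.15 (-0.02 to 0.32), and it was called under 1 of 24 settings (0.06 to 0.25). CX-5461 at 10 min against its later groups gave -0.18 and was also called under 1 of 24. The split of its reads between MLX-203 and MLX-202 ranged widely between replicates, with MLX-202 between 0% and 78.8%, although the gene total in CPM did not. On the TPM scale, given per length, the control replicates were at 73.6 and 45.7.

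The highest count of called members in a comparison with the control was 4 of 8, for CX-5461 at 10 min and for RBI2 at 120 min. RBI2 at 120 min had 4 of 8 members called (MYC and MXI1 lower, MXD4 and MNT higher) against 18% of all genes (8.9% higher and 9.07% lower), and CX-5461 at 120 min had 1 of 8 (MYC) against 0.0778% (0.0324% higher and 0.0454% lower). No member was called with CX-5461 at 30 min (background 0%), RBI2 at 10 min (0.201%) or RBI2 at 30 min (0.0713%) in the edgeR test, where 2, 3 and 4 members had an unadjusted p under 0.05 (22.9%, 12.9% and 25.8% of all genes) and DESeq2 called 0, 0 and 2 (0.162%, 1.38% and 9.61% of the genes it gave an adjusted p). Of the direct comparisons, RBI2 against CX-5461 had 3 of 8 members called at 10 min (3.06% of all genes, 2.23% higher and 0.83% lower) and 1 of 8 at 120 min (16.1%, 5.28% higher and 10.9% lower). At 30 min it had 0 of 8 called (0.013%), with 0 at an unadjusted p under 0.05 (7.79% of all genes) and 0 by DESeq2 (0.33%). CX-5461 at 10 min against its later groups had 3 of 8 called (3.9%, 1.54% higher and 2.35% lower). CX-5461 at 120 against 30 min had 0 called in edgeR (0.013% of all genes), 1 at an unadjusted p under 0.05 (19.3%) and 1 in DESeq2 (0.531%). RBI2 at 120 min against its earlier groups had 0 called (2.49%), 4 unadjusted (20.1%) and 1 in DESeq2 (9.24%), and RBI2 at 10 against 30 min had 0 by all 3 counts (0.188%, 9.21% unadjusted and 0.635% in DESeq2). The median log2 difference over all genes was between -0.05 and 0.06 in every comparison.

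Levels between genes were compared per length, as the deposited TPM (transcript abundance scaled to a fixed total). In the control MYC was highest at 115 TPM, followed by MLX at 59.6 and MAX at 54.6, whose replicates overlapped. MXD3 was at 16.0, MXI1 at 9.05, MXD4 at 5.17, MNT at 3.99 and MXD1 at 1.78 TPM. With CX-5461 at 10 min the order began with MLX at 65.4 and MAX at 44.5 TPM, and MYC at 22.7 overlapped MXD3 at 20.4. In that group MXD4 (9.92 TPM) overlapped MXI1 (9.47), and MXD1 (6.38) overlapped MNT (5.70). In the other 5 treated groups MYC, MLX, MAX and MXD3 kept the first 4 places in that order. With RBI2 at 10 and 30 min MYC was at 115 and 117 TPM, not below the control, whereas its CPM was. In those 2 groups MNT and MXD4 overlapped, and with RBI2 at 120 min MXD4 (7.79 TPM) stood above MXI1 (6.85) and MNT (6.72), which overlapped.

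The summed TPM of the 5 MAX-binding repressor genes (MXD1, MXD3, MXD4, MXI1 and MNT) was set against that of MYC as a description of the balance of transcripts, with no bearing on protein. The ratio was 0.309 and 0.319 in the control replicates and 2 and 2.63 with CX-5461 at 10 min. The later CX-5461 libraries gave 0.391 and 0.497 (30 min) and 0.5 and 0.462 (120 min). The RBI2 libraries gave 0.351 and 0.319 (10 min), 0.382 and 0.370 (30 min) and 0.489 and 0.489 (120 min). Group means were 0.314 ± 0.00721 (SD, n = 2) in the control, 2.32 ± 0.447 with CX-5461 at 10 min and at most 0.489 in the other groups. Repressor transcripts therefore exceeded those of MYC only in the CX-5461 10 min libraries, where the repressor sum was 51.9 TPM against 36.0 in the control and MYC was 22.7 TPM against 115. With 2 libraries a group, no test was made of the ratio.

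**Figure D4:**
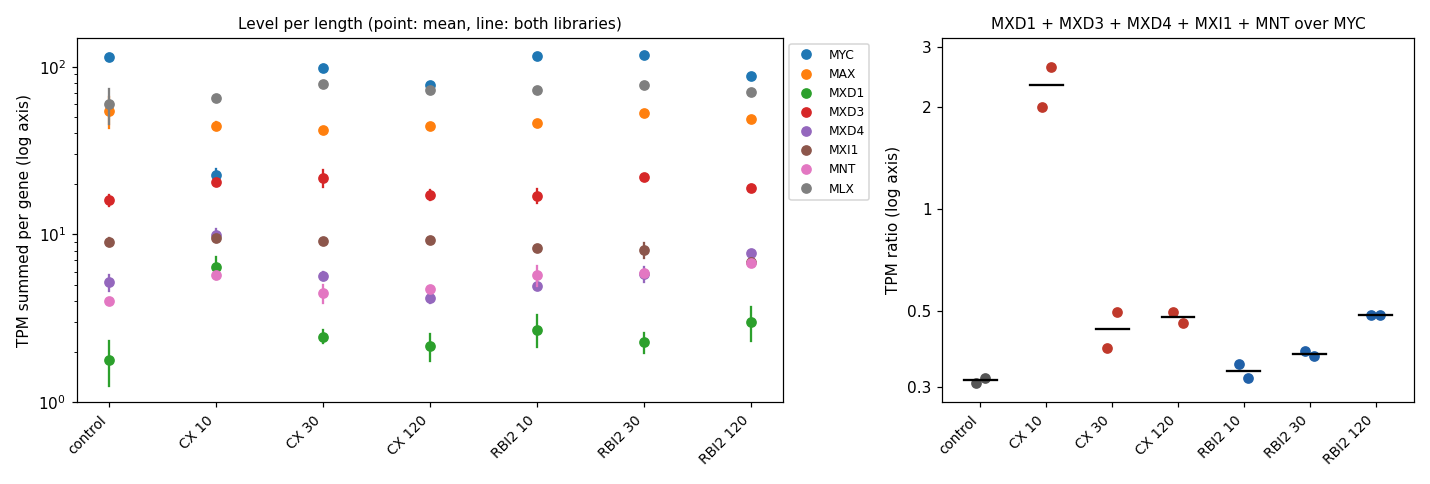
Left, TPM summed per gene on a log axis, with points for group means and lines joining the 2 libraries. Right, ratio of the summed TPM of MXD1, MXD3, MXD4, MXI1 and MNT to that of MYC, on a log axis, with points for libraries and bars for means; the CX-5461 10 min libraries sit at 2 and 2.63 and all others between 0.309 and 0.5.

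Of the remaining network genes, MLXIP, which carries the glucose response with MLX, changed under RBI2. It was at 84.1 and 80.8 CPM in the control and at 93.7 and 107, 120 and 118, and 158 and 150 CPM at the 3 successive RBI2 labels, with no overlap between these groups. The 6 CX-5461 libraries lay between 84.2 and 106 CPM. MLXIP rose with RBI2 at 120 min against the control (log2 fold change 0.90, SE 0.09, adjusted p = 0.00193), against CX-5461 at 120 min (0.63, SE 0.09, adjusted p = 0.00677) and against the mean of the earlier RBI2 groups (0.49, SE 0.08, adjusted p = 0.0201). The call against the control held under 22 of 24 settings. Those against CX-5461 and the earlier groups were lost without either RBI2 120 min replicate, with adjusted p of at most 0.0677 and 0.184, and the last also without replicate 1 of RBI2 at 10 min or either replicate of RBI2 at 30 min.

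MYCL, a paralog of MYC that also pairs with MAX, had 29 and 29 reads with CX-5461 at 10 min and 4 to 14 in the other libraries. Its difference from the later CX-5461 groups was 1.81 (SE 0.37, adjusted p = 0.0219), which DESeq2 did not call and which was lost without any 1 of 5 CX-5461 libraries (all except replicate 2 at 30 min), with adjusted p of at most 0.191 over all settings. Against the control it was 1.76 (adjusted p = 0.0618), which did not pass. MYCN had 0 reads in all 14 libraries, where 3 reads would be 0.121 to 0.213 CPM. MLXIPL had 6 to 16 reads, and MGA, a large MAX partner, had 358 to 854 reads and was not called in any comparison. These floors cover counting error only.

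The genes whose pattern was most like that of each changing member were taken by Pearson's r of log2 CPM over the 14 libraries, among 15425 others. The libraries share 7 groups, so r is a description with no test. For MYC they included SPRY2 (r = 0.988), EIF4A2 (0.986), CCN1 (0.977) and DUSP6 (0.976). SPRY2 and DUSP6 are feedback inhibitors of receptor tyrosine kinase and ERK signalling, EIF4A2 is a translation initiation helicase and CCN1 is a matricellular protein. Over the 12 libraries without CX-5461 at 10 min, r of these 4 was 0.749, 0.726, 0.464 and 0.620. For MXD1 the nearest genes were KLF9 (0.945), TENT5A (0.922) and FOSB (0.896), which became 0.714, 0.602 and 0.310 without that group. For MXD4 they were IRX3 (0.942), INPP5K (0.928) and C2CD2L (0.927), which became 0.811, 0.713 and 0.842. For MNT they were SRF (0.942), HIP1R (0.927) and MAFK (0.911), and for MXI1 they were RBBP7 (0.918), PWP1 (0.914) and CCT5 (0.910). In contrast to the genes near MYC and MXD1, these 6 kept r between 0.907 and 0.947 without the CX-5461 10 min libraries.

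The proteins that act with or on the network were read from fixed lists. Among 19 cofactors of MYC and of its antagonists, 0 were called with CX-5461 at 10 min against 4.77% of all genes. There 3 had an unadjusted p under 0.05 (22.5% of all genes) and DESeq2 called 0 (6.68% of the genes it gave an adjusted p). In the same list 4 rose and 2 fell with RBI2 at 120 min (31.6% against 18% of all genes). HCFC1, a host cell factor that binds MYC, rose by 0.97 (SE 0.14, adjusted p = 0.00623), and EP400, an ATPase of the TIP60 complex, by 0.67 (SE 0.19, adjusted p = 0.0394). ACTL6A, an actin-like subunit of chromatin remodelers, and HDAC2, a deacetylase of the SIN3 complex, fell by 0.30 each (adjusted p = 0.0162 and 0.0402). The call of HCFC1 held under 23 of 24 settings and that of HDAC2 under 7. Without control replicate 1 the cofactors had 4 higher and 6 lower with CX-5461 at 10 min, where 37.7% of all genes were then called. The correction for GC content and length left 2 higher and 0 lower with RBI2 at 120 min, where it left 5.68% of all genes called.

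Of 15 genes that control the turnover of MYC protein, 3 were called with CX-5461 at 10 min (20% against 4.77% of all genes) and 2 with RBI2 at 120 min (13.3% against 18%). PIM2, a kinase that stabilizes MYC, rose by 0.56 (SE 0.13, adjusted p = 0.0333) with CX-5461 at 10 min. FBXW7 and TRIM32, ubiquitin ligases for MYC, fell by 0.65 (SE 0.16, adjusted p = 0.0441) and 0.40 (SE 0.10, adjusted p = 0.05, under the threshold before rounding). Their calls held under 12, 12 and 2 of 24 settings, and none held without control replicate 2. With RBI2 at 120 min HUWE1, another ligase, and USP36, a nucleolar deubiquitinase, rose by 0.74 (adjusted p = 0.0487) and 0.55 (adjusted p = 0.00811), with the call of HUWE1 held under 12 of 24 settings. Without control replicate 1 this list had 4 higher and 6 lower with CX-5461 at 10 min (37.7% of all genes) and 4 and 4 with RBI2 at 120 min (43.1% of all genes). Of 10 tested proteins that bind or destabilize MYC mRNA, 1 was called with CX-5461 at 10 min (10% against 4.77%) and 4 with RBI2 at 120 min (40% against 18%). ZFP36L1, which directs the decay of AU-rich transcripts, fell by 1.40 (SE 0.14, adjusted p = 2.88e-04) with CX-5461 at 10 min and was 0.95 higher with RBI2 than with CX-5461 at that label (SE 0.14, adjusted p = 0.00355). With RBI2 at 120 min KHSRP rose by 0.37 (adjusted p = 0.00721), while IGF2BP3, PABPC1 and CNBP fell, the first 2 by 0.59 (adjusted p = 0.0286) and 0.51 (adjusted p = 0.0424). Without control replicate 2 only 1 of these 3 decreases was called (8.27% of all genes), and without control replicate 1 the list had 8 lower (43.1% of all genes). Other groups held differences of similar size that were not called. PABPC1 stood at -0.51 and -0.62 with RBI2 at 10 and 30 min, and IGF2BP3 at -0.48 and -0.50 with CX-5461 at those labels.

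Genes that MYC activates were called at about the background share in the group where MYC mRNA was lowest. Of 61 tested, 0 rose and 3 fell with CX-5461 at 10 min, or 4.92% against 4.77% of all genes, with a median log2 difference of 0.03 against -0.04 over all genes. The 3 were PPAN, GNL3 and NOP56, all nucleolar proteins of ribosome assembly, at -0.59 (SE 0.11, adjusted p = 0.0149), -0.36 (SE 0.07, adjusted p = 0.0183) and -0.27 (SE 0.06, adjusted p = 0.0335). None of these calls held without either CX-5461 10 min replicate. With RBI2 at 120 min 8 rose and 9 fell (27.9% against 18%), with a median of 0.03. GRWD1 and CAD, for ribosome assembly and pyrimidine synthesis, rose by 0.66 (adjusted p = 0.0160) and 0.61 (adjusted p = 0.00806), and PLK4 and WDR43 fell by 0.78 (adjusted p = 0.0307) and 0.57 (adjusted p = 0.0217). In the CX-5461 30 and 120 min groups and the RBI2 10 and 30 min groups 0 of 61 were called in edgeR. Of the 61, 21, 10, 8 and 26 had an unadjusted p under 0.05, against 22.9%, 12.4%, 12.9% and 25.8% of all genes. At the 30 min label of each compound this share of the list was above that of all genes. DESeq2 called 0, 0, 0 and 9, against 0.162%, 1.13%, 1.38% and 9.61% of the genes it gave an adjusted p. These counts depended on the control libraries. Without control replicate 1, CX-5461 at 10 min had 19 higher and 15 lower (37.7% of all genes called), and without control replicate 2 it had 0 and 2 (3.01%). For RBI2 at 120 min the counts were 23 and 16 (43.1% of all genes), and 6 and 4 (8.27%), and with a correction for GC content and length they were 2 and 0 (5.68%).

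Of 8 tested genes that MYC represses, 4 rose and 2 fell with CX-5461 at 10 min (75% against 4.77% of all genes, median 0.62). CEBPA, a differentiation factor present at 0.457 CPM in the control, rose by 2.62 (SE 0.48, adjusted p = 0.0119), and CDKN1A, the cell cycle inhibitor p21, rose by 1.06 (SE 0.15, adjusted p = 0.00265). GADD45B and NDRG1, both stress responsive, rose by 0.88 and 0.35. GADD45A, a DNA damage response gene, fell by 1.20 (SE 0.08, adjusted p = 2.5e-05) and CDKN1B, the inhibitor p27, by 0.92 (SE 0.09, adjusted p = 2.26e-04). The call of CEBPA was lost in DESeq2, without control replicate 2 (adjusted p = 0.0535) and without either CX-5461 10 min replicate, and those of CDKN1A, GADD45A, GADD45B and CDKN1B held under 23 of 24 settings. Against the later CX-5461 groups 5 rose and 2 fell of 8, against 3.9% of all genes. With RBI2 at 120 min 3 of 8 were called (37.5% against 18% of all genes). GADD45B and GADD45A rose by 0.41 and 0.33, both lost without control replicate 2 (adjusted p = 0.0855 and 0.0880), and CDKN1B fell by 0.55. GADD45B was also the 1 gene of 8 called with RBI2 at 10 min, where MYC was not called (1.04, SE 0.10, adjusted p = 0.00179, against 0.201% of all genes), and with CX-5461 at 120 min (0.74, SE 0.10, adjusted p = 0.0232, against 0.0778%). The first of these calls held under 23 of 24 settings and the second under 9.

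TXNIP, ARRDC4 and PFKFB3 are targets of the MLX branch. TXNIP, which limits glucose uptake, was at 195 and 203 CPM in the control, at 118 and 124 with CX-5461 at 10 min and between 184 and 231 in all other libraries. It fell by 0.72 (SE 0.07, adjusted p = 1.84e-04) against the control and was 0.92 higher with RBI2 than with CX-5461 at 10 min (SE 0.07, adjusted p = 3.47e-05), the latter under all 24 settings. ARRDC4, its paralog, was at 10.5 and 10.1 CPM with CX-5461 at 10 min, above the 4.19 to 8.56 CPM of the other libraries, and exceeded the later CX-5461 groups by 0.79 (SE 0.18, adjusted p = 0.0346). Against the control the difference was 0.84 (adjusted p = 0.0542), and RBI2 against CX-5461 at 10 min gave -0.39 (adjusted p = 0.447). Neither was called. PFKFB3, a regulator of glycolysis, rose by 0.46 (SE 0.13, adjusted p = 0.0356) with RBI2 at 120 min, a call that held under 11 of 24 settings. Its difference from the control was 0.67 with RBI2 at 10 min (adjusted p = 0.0928) and 0.41 with RBI2 at 30 min. With CX-5461 at 120 min it was 0.43. None of these was called.

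**Figure D5:**
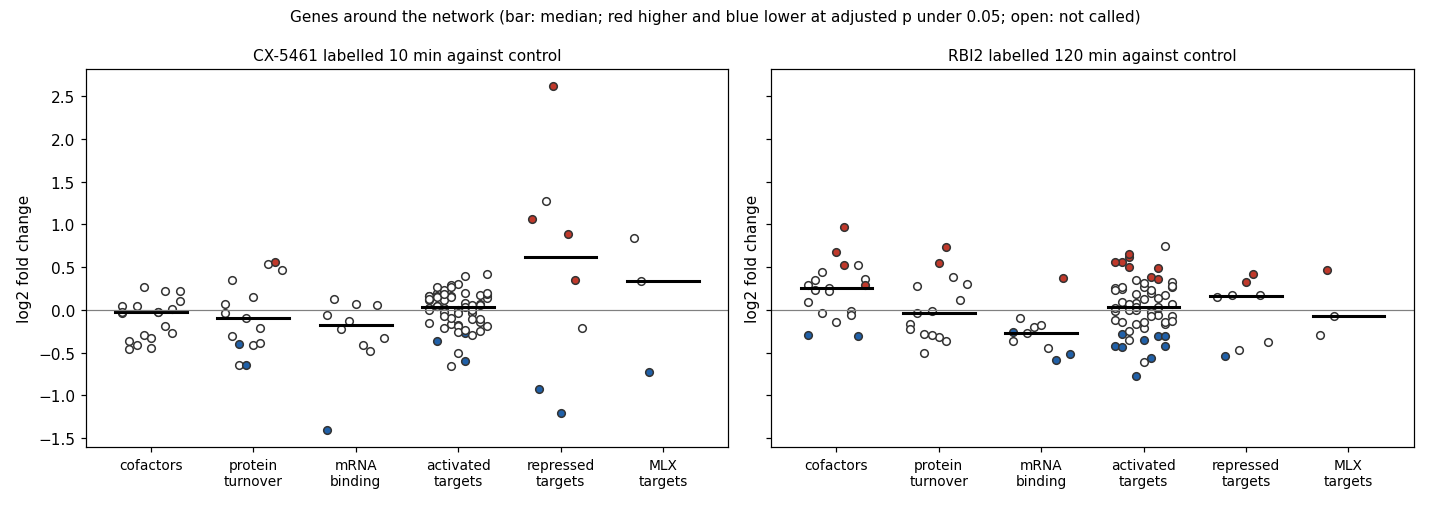
Log2 fold change against the control (vertical axis) for each tested gene of 6 lists around the network, with CX-5461 at 10 min on the left and RBI2 at 120 min on the right, where bars mark the medians and red and blue points passed the test as higher and lower. The 61 activated targets centre on 0.03 in both panels, while the 8 repressed targets spread from -1.20 to 2.62 with CX-5461 at 10 min.

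Of 5 mesenchymal markers of the line, 2 were called with RBI2 at 120 min (40% against 18% of all genes). VIM and CAV1 fell by 0.22 (adjusted p = 0.0346) and 0.38 (adjusted p = 0.0178) on the log2 scale. CD44 (-0.30), AXL (0.06) and MSN (0.04) were not called. GATA3, the 1 luminal marker tested, fell with CX-5461 at 10 min by 0.65 (adjusted p = 0.0420). With RBI2 at 10 min its difference from the control was also -0.65, though not called. Between the compounds at that label GATA3 differed by -0.002, which was not called. Their part in the results for the network was not tested.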

How the data were processed

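The series holds 14 poly(A) RNA libraries of MDA-MB-231 cells (7 groups of 2). The authors removed reads aligned to ribosomal DNA and quantified the rest with Salmon on GRCh38 transcripts, and the submitters' processing notes name STAR 2.7.6a, SAMtools 1.11, bedtools 2.29.2, Salmon 1.3.0 and DESeq2 1.28.1. The deposited tables give estimated counts and TPM per transcript. Whether strand was used in quantification is not given in the sources used here.

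Gene names came from GENCODE release 44 through transcript identifiers (225662 of 228754 found, 1.03% to 1.13% of reads unmatched and left out). Estimated counts were summed per gene and rounded. All 14 libraries were fitted in a model of 7 groups with edgeR 4.0.16 (quasi-likelihood F test, TMM, filterByExpr with a minimum count of 10) in R 4.3.3, in 13 comparisons, with Benjamini-Hochberg adjustment over 15426 genes. A gene was called at an adjusted p under 0.05 with no limit on the fold, and intervals are at 95%. The common biological coefficient of variation was 12.27%, so small changes of genes at few CPM are imprecise. Library totals had a median of 16305236 reads, and a count of 0 allows up to 3 reads. Deposited TPM were summed per gene to compare levels between genes, and log2 CPM used a prior count of 2.

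Tested on simulated data for CX-5461 at 10 min against the control (15147 genes), the fit recovered 15.2% of genes changed by 0.5 on the log2 scale, 82.1% at 1 and 98.5% at 2, with 6 false calls. Apart from the set changes, the simulated libraries shared a common mean per gene, so a library that stands apart, as control replicate 2 did, was not simulated. The count of false calls does not cover that case.

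Alternatives were other size factors, DESeq2 1.42.0, no filter, an offset for average transcript length, a correction for transcript GC content and length, protein-coding transcripts only, no mitochondrial genes, only the libraries compared, a replicate block, a fold limit, and each library left out in turn. Counts of settings exclude the fold limits.

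The members and lists were chosen with earlier results of these data known. Named genes were all members, MYCN, MYCL, MGA, MLXIP and MLXIPL, at most the 2 largest rises and 2 largest falls among called genes of each list in comparisons with the control and between compounds, and the nearest patterns (5 for MYC, 3 for each other member called at least once). A single gene among the nearest patterns of MYC is not reported here. NOP56, CNBP, GADD45B with CX-5461, NDRG1 and ARRDC4 fall outside this rule and were chosen with their values known. Lists were cofactors, regulators of MYC turnover, binders of MYC mRNA, activated and repressed targets, MLX targets and markers of the line and of other cells, from general knowledge.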

Additional observations from a re-analysis of the deposited data

Results flagged for a closer look

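The effect of the compound on 3 members differed between CX-5461 and RBI2 at the 10 min label, by the edgeR test of the difference itself. RBI2 minus CX-5461 was 2.30 for MYC (SE 0.08, adjusted p = 1.22e-07), -0.91 for MXD1 (SE 0.17, adjusted p = 0.0189) and -0.97 for MXD4 (SE 0.14, adjusted p = 0.00388), in log2 units. At the 120 min label MXI1 differed between the compounds by -0.44 (SE 0.11, adjusted p = 0.0267).

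Within CX-5461 the 10 min group differed from the mean of the later groups by -2.06 for MYC (SE 0.07, adjusted p = 1.05e-07), 1.07 for MXD1 (SE 0.15, adjusted p = 0.00221) and 0.91 for MXD4 (SE 0.12, adjusted p = 0.00165). The marks in the names of the deposited tables do not match the time labels of any treated library, so the order of the groups in time holds for the labels only.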

How the results depend on the processing

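The value of MYC with CX-5461 at 10 min kept its call under all alternatives run, and no called member reversed. Over 24 settings without the fold limit, the calls of single members were kept 315 times and lost 69 times, and the cause was not tested. Counts of called members moved as follows, with the share of all genes called under the same setting in parentheses. With a limit of 1 on the absolute log2 fold change, with adjusted or unadjusted p, they were 2 in place of 4 for CX-5461 at 10 min against the control (1.64% adjusted, 4.19% unadjusted), 0 in place of 1 for CX-5461 at 120 min (0.0454%, 1.87%), 0 in place of 4 for RBI2 at 120 min (1.82%, 3.65%), 1 in place of 3 for RBI2 against CX-5461 at 10 min (1.04%, 3.05%), 0 in place of 1 at 120 min (1.67%, 3.67%) and 2 in place of 3 for CX-5461 at 10 min against its later groups (1.07%, 2.43%). With the length offset they were 2, 0 and 1 for the first 3 of these (2.26%, 0.0194% and 1.4%). With only the libraries compared, which leaves fewer residual degrees of freedom, they were 1, 0 and 0 (0.0208%, 0% and 0%), with 2 for RBI2 against CX-5461 at 120 min (22.8%) and 3 in place of 0 for RBI2 at 120 min against its earlier groups (21.2%). Without the filter they were 1 for CX-5461 at 30 min (6.25%), 2 at 120 min (1.9%), 1 for RBI2 at 30 min (6.7%), 0 for RBI2 against CX-5461 at 120 min (8.49%) and 1 for CX-5461 at 120 against 30 min (3.53%). DESeq2 gave 2 for RBI2 at 30 min (9.61%), 0 for RBI2 against CX-5461 at 120 min (20.8%), and 1 both for CX-5461 at 120 against 30 min (0.531%) and for RBI2 at 120 min against its earlier groups (9.24%). The GC and length correction, alone or with the block, gave 2 for RBI2 at 120 min (5.68% and 5.08%) and 0 against CX-5461 (14.6% and 13.7%), and protein-coding transcripts gave 2 for RBI2 at 120 min (13.8%).

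Leaving out each library in turn gave 3 to 5 members with CX-5461 at 10 min (1.27% to 37.7% of all genes), 0 to 4 at 30 min (0% to 39.3%), 0 to 3 at 120 min (0.0124% to 21.5%), 0 to 4 with RBI2 at 10 min (0.0431% to 29.1%) and at 30 min (0% to 38.3%) and 0 to 5 at 120 min (0.448% to 43.1%). It gave 1 to 4 (0.94% to 6.21%), 0 to 0 (0% to 0.0923%) and 0 to 3 (0.0371% to 27.9%) for RBI2 against CX-5461 at 10, 30 and 120 min, 3 to 5 (1.01% to 6.65%) and 0 to 1 (0.00615% to 8.74%) within CX-5461, and within RBI2 0 to 2 for 120 min against the earlier groups (0.00618% to 12.7%) and 0 to 0 for 10 against 30 min (0.0308% to 1.06%). The highest counts against the control came without control replicate 1, where the shares of all genes were highest too, and RBI2 at 120 min had 2 without control replicate 2.

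The replicate numbers showed no clear pairing of the samples: of 21 pairs of groups 3 had a correlation of same-numbered deviations over 0.1 (range -0.179 to 0.18). With 2 libraries a group, such correlations cannot decide whether the samples were paired. The block gave 4, 0 and 1 members for CX-5461 and 0, 0 and 4 for RBI2 at 10, 30 and 120 min, and 3, 0 and 1 between the compounds, equal to the counts without it.

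From CPM in place of TPM, the ratio of repressor genes to MYC was 0.400 in the control, 3.17, 0.518 and 0.620 with CX-5461, and 0.438, 0.509 and 0.619 with RBI2, at 10, 30 and 120 min. Depth limits the values of MYCL (4 to 29 reads) and MLXIPL (6 to 16 reads), and MYCN had 0 reads.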

Other observations

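Between the compounds at the 120 min label 16.1% of all genes were called. Of 19 cofactors RBI2 was higher than CX-5461 for 1 and lower for 2 (15.8%, near the share of all genes), with HCFC1 at 0.69 (adjusted p = 0.0134). It was higher for 1 and lower for 3 of 15 regulators of MYC turnover (26.7%), with USP36 at 0.43 (adjusted p = 0.0149) and USP28, a deubiquitinase that stabilizes MYC, at -0.44 (adjusted p = 0.0361). Of 10 proteins that bind or destabilize MYC mRNA 1 was higher and 3 lower (40%), with HNRNPK, an RNA-binding protein, at -0.31 (adjusted p = 0.0130), and 0 were called after the correction for GC and length. Of 8 repressed targets 1 was higher and 1 lower (25%), GADD45A at 0.64 (adjusted p = 0.00670) and GADD45B at -0.32 (adjusted p = 0.0461, called under 6 of 24 settings). Of 61 activated targets 2 were higher and 8 lower (16.4%, near the share of all genes). TCOF1, the nucleolar protein treacle, stood at 0.55 (adjusted p = 0.00670), and UTP20 and PRMT3, for processing and modification of ribosomal components, stood at -0.88 (adjusted p = 0.0409) and -0.57 (adjusted p = 0.00692). The control libraries do not enter this contrast but share in the estimate of spread. The activated targets counted 9 higher and 16 lower without control replicate 1 (27.8% of all genes called) and 11 and 16 without control replicate 2 (27.9%). Corrected for GC and length they were 2 and 11 (14.6%).

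Across the 14 libraries the log2 CPM of MYC had a Pearson correlation of -0.878 with MXD4, -0.824 with MXD1 and -0.633 with MNT, as a description over libraries that share 7 groups. Over the 12 libraries without CX-5461 at 10 min these were -0.413, 0.536 and -0.739, so the sign for MXD1 rested on that pair of libraries.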
